A study of Mus musculus with 12 samples.

Results

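The regional code of the brainstem progenitors was followed through 44 transcription factors of forebrain, midbrain and hindbrain patterning, taken from a fixed list of gene names and matched to the Ensembl mouse identifiers of the count tables. All 44 were found among the 54532 genes measured, and each had at least 1 count in some sample. RNAseq was available from 12 samples, 3 in each of 4 groups: *ACVR1* WT alone, *ACVR1* R206H alone, and each of these together with H3.1K27M (*ACVR1* WT with H3.1K27M, *ACVR1* R206H with H3.1K27M). All 12 came from brainstem progenitors of C57BL/6 pups at postnatal day 3 to 5 that carried Nestin TVA, the avian virus receptor under a progenitor promoter, and floxed p53. The cells were grown as neurospheres with EGF and FGF2 and infected with RCAS vectors, avian retroviruses that carried human *ACVR1*, wild type or R206H (the receptor mutation found in pontine glioma), alone or together with H3.1K27M, the histone H3.1 lysine-to-methionine mutant. The labels name no Cre for these cultures, and they do not say whether the replicates, or the cultures with and without H3.1K27M, came from separate litters, so that H3.1K27M and culture of origin cannot be told apart and the p values measure the spread between these samples only.

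Regional identity in the neural tube is set by homeodomain, paired-box, zinc-finger and nuclear-receptor factors, each of which is switched on in a limited stretch of the axis. *Otx1* and *Otx2* mark the forebrain and midbrain, *Gbx2* the anterior hindbrain on the other side of the boundary between them, and Hox genes the hindbrain and spinal cord, while *Meis1* and *Meis2* encode cofactors of Hox proteins. Many of these genes are textbook targets of Polycomb, which places the H3K27 trimethyl mark that H3.1K27M is known to reduce. The 44 genes were grouped by domain into 18 forebrain factors, 9 factors of the midbrain-hindbrain boundary and roof plate, 6 Iroquois genes, 4 Zic genes and 7 factors of the alar plate and hindbrain.

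The cultures expressed factors of several domains at once. Levels between genes were compared as CPM (counts scaled to a common library size, with a correction for composition) per kb of exon, averaged over the 12 samples. In this mean, whose order is not that of each group, *Nr2f1*, a nuclear receptor with a broad domain, stood first at 13.9 CPM per kb, followed by *Irx2* at 11.2, *Irx1* at 8.47, *En2* at 8.26, *Zic1* at 8.21, *Meis1* at 6.75 and *Meis2* at 6.05. At the other end, 15 of the 44 genes never reached a mean normalized count of 10 in any comparison and were not tested: *Emx1*, *Lhx9*, *Rax*, *Hesx1*, *Dmrta2*, *Fezf2* and *Gsx2* of the forebrain, *Pax2*, *Pax5*, *Pax8* and *Gbx1* of the boundary, *Irx4*, *Irx6*, *Barhl1* and *Tlx3*. None of these exceeded 10 counts in a sample, which is 0.429 CPM for the highest, *Dmrta2*.

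**Figure D1:**
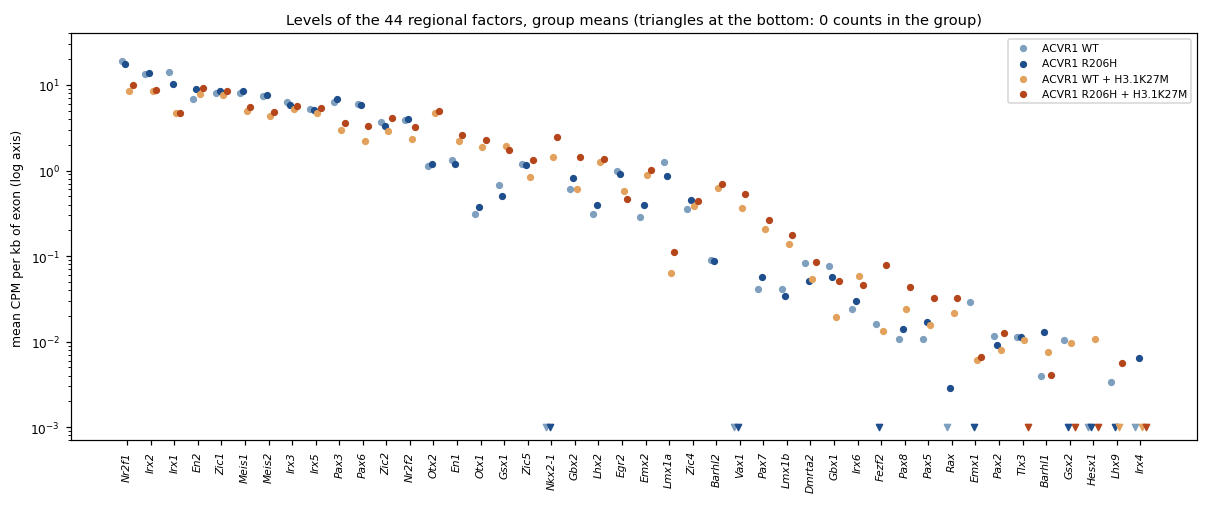
Group means of the 44 regional factors, in CPM per kb of exon on a log axis, with genes ordered by their mean over the 12 samples and triangles for groups with 0 counts. *Nr2f1* had the highest mean over all samples at 13.9 CPM per kb, and *Nkx2-1* and *Vax1* had triangles in both groups without H3.1K27M and points in both groups with it.

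The library of *ACVR1* WT replicate 1 stood apart from its own group, which touches each comparison that uses that group. Its log expression correlated with its 2 fellow replicates at r = 0.961 and 0.977, against 0.993 between those 2, and with the 3 *ACVR1* R206H libraries at 0.991 to 0.994. *ACVR1* WT replicate 3 correlated with the *ACVR1* R206H libraries at 0.975 to 0.982. The biological coefficient of variation was 0.275 in *ACVR1* WT and 0.0453 to 0.0594 in the other groups. Total counts ran from 19315020 to 26456257. The vectors carried human *ACVR1*, and whether their reads were counted on the mouse gene was not tested. Mouse *Acvr1* had 46.1 to 53.1 CPM in *ACVR1* WT, 82.3 to 114.3 in *ACVR1* R206H, 162.7 to 368.2 in *ACVR1* WT with H3.1K27M and 548.2 to 1056 in *ACVR1* R206H with H3.1K27M, and the part of this difference in the results was not tested. All 7 neural progenitor markers were expressed, with a summed level of 2597 to 3643 CPM in each sample. *Fabp7* made up most of this sum, at group means of 2242 to 2417 CPM. For H3.1K27M against none, 0 of the 7 were higher, while 2 were lower with *ACVR1* WT and 4 with *ACVR1* R206H. *Sox2* had group means of 354.5 and 357.6 CPM without and 228.9 and 260.3 with H3.1K27M, and *Nes* 202.6 and 255.6 without and 328.8 and 268.5 with it. Of the markers of other cells, the 6 astrocyte markers summed to 3691 to 12010 CPM in *ACVR1* WT, 6030 to 6961 in *ACVR1* R206H, 3697 to 3760 in *ACVR1* WT with H3.1K27M and 4755 to 5055 in *ACVR1* R206H with H3.1K27M. For H3.1K27M against none, 0 of them were higher and 2 lower with *ACVR1* WT, and 2 were higher and 4 lower with *ACVR1* R206H. The 7 oligodendrocyte lineage markers summed to 2361 to 3267 CPM in the 6 samples without H3.1K27M and to 3480 to 4283 in the 6 with it. Of these 1 was higher and 0 lower with *ACVR1* WT, and 5 were higher and 1 lower with *ACVR1* R206H. *Olig1* and *Olig2* made up most of the sum, *Olig1* at group means of 1612 and 1837 CPM without and 2481 and 2351 with H3.1K27M. *Pdgfra* went the other way, from 285.4 and 187.5 to 184.9 and 134.9 CPM. The 6 microglia markers summed to 2.78 to 10.3 CPM without and 1.29 to 2.95 with H3.1K27M, with *Csf1r* at group means of 3.35 and 1.87 CPM without and 0.0478 and 0.0870 with it. *P2ry12* did not follow, with 1.14 and 1.07 CPM without and 1.075 and 2.11 with it. Of the microglia markers 0 were higher and 2 lower with *ACVR1* WT, and 1 was higher and 1 lower with *ACVR1* R206H. Of the neuron markers 1 was higher and 1 lower with *ACVR1* WT and 4 higher and 1 lower with *ACVR1* R206H, of the meningeal and fibroblast markers 1 and 2 were higher in that order, and of the endothelial markers 0 passed with *ACVR1* WT and 1 was higher and 1 lower with *ACVR1* R206H. The part of these lists in the results was not tested.

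The first question was whether H3.1K27M shifted the regional code. With *ACVR1* WT, 16 of 27 regional factors tested passed the threshold (an adjusted p under 0.05 from the quasi-likelihood F test of edgeR, adjusted by Benjamini-Hochberg over all genes), 7 higher and 9 lower with H3.1K27M, which is 59.3% against 23.0% of all 15385 genes tested (12.6% higher and 10.4% lower). With *ACVR1* R206H, 22 of 28 passed, 12 higher and 10 lower, which is 78.6% against 56.5% of 15482 genes (29.1% higher and 27.4% lower). Some factors reached the filter only through the groups where they were high, so that these counts are a description: *Nkx2-1*, *Barhl2* and *Pax7* among the rises and *Lmx1a* among the falls in both backgrounds, and *Lmx1b* among the rises with *ACVR1* R206H, had under 10 counts in samples of the other group. Among factors with at least 10 counts in every sample, 12 of 22 passed with *ACVR1* WT (4 higher and 8 lower), beside 3069 of 14000 genes, and 17 of 23 with *ACVR1* R206H (8 higher and 9 lower), beside 8182 of 14224 genes. Without *ACVR1* WT replicate 1, 24 of 28 passed with *ACVR1* WT, 11 higher and 13 lower, beside 52.6% of all genes, and all 16 remained among them. The comparisons with *ACVR1* WT and with *ACVR1* R206H share no samples. All 16 factors called with *ACVR1* WT were also called with *ACVR1* R206H and in the same direction, 7 higher and 9 lower, and they make up 72.7% of the 22. The median absolute log2 difference of the factors tested was 0.81 with *ACVR1* WT and 0.87 with *ACVR1* R206H, where that of all genes was 0.27 and 0.26. In bulk RNA, fewer cells that express a factor and less of its RNA per cell cannot be told apart.

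*Nkx2-1*, the homeodomain factor that defines the ventral forebrain and hypothalamus, was present only in the cultures with H3.1K27M. It had 0 counts in each of the 6 samples without H3.1K27M. With H3.1K27M it had 109, 83 and 95 counts (4.52, 3.96 and 3.80 CPM) in the *ACVR1* WT samples and 158, 137 and 201 counts (7.51, 5.88 and 7.51 CPM) in the *ACVR1* R206H samples. Set against the limit of 3 counts over the 3 samples at 0, its level was at least 83.6-fold higher with *ACVR1* WT (edgeR adjusted p = 0.00156) and at least 139-fold higher with *ACVR1* R206H (edgeR adjusted p = 6.6e-08). In the whole transcriptome only 5 genes had 0 counts in all 6 samples without H3.1K27M and at least 10 counts in each of the 6 with it, by a rule set after the values were seen, and none showed the opposite pattern. The other 4 were *Nkx2-4*, a close relative of *Nkx2-1* (27 to 81 counts with H3.1K27M), *Sfta3-ps*, a non-coding gene within 100 kb of *Nkx2-1* (19 to 60 counts), *Slc38a4*, an amino acid transporter (16 to 23 counts), and the non-coding *Gm49708* (20 to 44 counts). *Nkx2-9*, also within 100 kb, had 0 counts in all 6 samples without H3.1K27M and 1 to 8 counts in each of the 6 with it.

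*Vax1*, a ventral forebrain and optic stalk factor, had the same pattern at a lower level. It had 0 counts in the 6 samples without H3.1K27M, 10, 6 and 13 counts with *ACVR1* WT and H3.1K27M and 16, 6 and 20 counts with *ACVR1* R206H and H3.1K27M. These counts were under the filter in both H3.1K27M comparisons, and the levels were at least 8.31-fold and 11.7-fold higher against the same limit of 3 counts. With no filter on low counts *Vax1* passed in both (edgeR adjusted p = 0.00979 with *ACVR1* WT and 4e-09 with *ACVR1* R206H). *Rax*, the retinal and hypothalamic homeobox gene, had 0 or 1 count in each sample without H3.1K27M and 1 to 7 counts in each with it. It passed without the filter with *ACVR1* R206H only (edgeR adjusted p = 0.0341), as did *Fezf2*, a forebrain zinc-finger factor (edgeR adjusted p = 0.00088), which had 0 counts in each *ACVR1* R206H sample and 5, 6 and 6 with H3.1K27M added.

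The Otx genes rose in both backgrounds. *Otx1* had 1.88, 1.60 and 1.505 CPM with *ACVR1* WT, 2.41, 1.72 and 2.04 with *ACVR1* R206H, 10.7, 9.03 and 10.8 with *ACVR1* WT and H3.1K27M, and 11.98, 12.01 and 12.96 with *ACVR1* R206H and H3.1K27M. The 6 samples with H3.1K27M lay above all 6 without it, and the log2 difference was 2.59 with *ACVR1* WT (standard error 0.16, edgeR adjusted p = 0.00084) and 2.61 with *ACVR1* R206H (standard error 0.13, edgeR adjusted p = 1.5e-08). *Otx2* had 5.88, 3.095 and 5.14 CPM with *ACVR1* WT, 4.63, 6.03 and 4.33 with *ACVR1* R206H, 20.1, 18.9 and 19.8 with *ACVR1* WT and H3.1K27M, and 22.8, 19.9 and 19.8 with *ACVR1* R206H and H3.1K27M. Again no sample of one kind reached the range of the other. The log2 difference of *Otx2* was 2.04 (standard error 0.23, edgeR adjusted p = 0.0034) with *ACVR1* WT and 2.09 (standard error 0.12, edgeR adjusted p = 3.3e-08) with *ACVR1* R206H.

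*Lhx2* and *Emx2*, of the dorsal forebrain, rose as well. *Lhx2*, a LIM homeodomain selector of cortex and eye, had 1.93, 1.29 and 0.922 CPM with *ACVR1* WT, 1.86, 2.18 and 1.17 with *ACVR1* R206H, 5.64, 5.88 and 5.08 with *ACVR1* WT and H3.1K27M, and 5.75, 5.58 and 6.46 with *ACVR1* R206H and H3.1K27M. The ranges did not overlap, with log2 differences of 1.98 (edgeR adjusted p = 0.00566) and 1.81 (edgeR adjusted p = 7.1e-06). *Emx2*, which patterns the caudal cortex, had 0.941, 0.929 and 0.679 CPM with *ACVR1* WT and 1.11, 1.20 and 1.22 with *ACVR1* R206H. With H3.1K27M it had 2.45, 2.48 and 3.12 CPM beside *ACVR1* WT and 3.28, 3.09 and 2.88 beside *ACVR1* R206H, all above the samples without H3.1K27M. Its log2 differences were 1.64 (edgeR adjusted p = 0.00525) and 1.42 (edgeR adjusted p = 4e-05). Counting did not use strand, and *Emx2os*, whose exons overlap *Emx2* on the other strand, was also higher with H3.1K27M (log2 1.73, edgeR adjusted p = 0.0241, and 0.94, adjusted p = 0.0132). The pair shares 264 of the 3002 exon bases of *Emx2*, where reads cannot be told apart and, by the counting settings, were left out. *Otx2os1*, the antisense partner of *Otx2*, had 1 to 4 counts in the samples without H3.1K27M and 6 to 14 in those with it.

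A pair of low homeobox genes of the diencephalon and ventral forebrain was also higher. *Barhl2* had 0.471, 0.103 and 0.0485 CPM with *ACVR1* WT, 0.101, 0.312 and 0.194 with *ACVR1* R206H, 1.70, 1.43 and 1.24 with *ACVR1* WT and H3.1K27M, and 1.90, 0.944 and 1.94 with *ACVR1* R206H and H3.1K27M. The log2 difference of *Barhl2* was 2.74 with *ACVR1* WT (standard error 0.59, edgeR adjusted p = 0.0214) and 2.98 with *ACVR1* R206H (standard error 0.43, edgeR adjusted p = 1e-04). The first call was lost without *ACVR1* WT replicate 2 or without any of the 3 samples of *ACVR1* WT with H3.1K27M (log2 2.44 to 2.85, edgeR adjusted p 0.0734 to 0.0852), and remained in the comparison with *ACVR1* R206H. *ACVR1* WT replicate 1 held 10 of the group's counts and the other replicates 2 and 1, and without it the log2 difference was 4.17 (edgeR adjusted p = 0.00019). *Gsx1* had 0.423, 1.75 and 1.41 CPM with *ACVR1* WT and 3.49, 3.96 and 2.76 with *ACVR1* WT and H3.1K27M, which did not overlap but missed the threshold (log2 1.502, edgeR adjusted p = 0.0575). With *ACVR1* R206H it rose from 0.754, 1.14 and 0.778 CPM to 2.85, 3.13 and 3.21 CPM (log2 1.81, edgeR adjusted p = 1.9e-05). Without *ACVR1* WT replicate 1, *Gsx1* passed with *ACVR1* WT as well (log2 1.09, edgeR adjusted p = 0.00556).

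*Nr2f1*, *Nr2f2* and *Pax6*, which were grouped with the forebrain factors but are also expressed in the hindbrain, fell. *Pax6*, a paired-box factor of cortex, eye and rhombic lip, had 51.3, 75.7 and 83.3 CPM with *ACVR1* WT, 63.8, 68.2 and 75.4 with *ACVR1* R206H, 27.6, 24.8 and 26.1 with *ACVR1* WT and H3.1K27M, and 39.1, 36.6 and 39.8 with *ACVR1* R206H and H3.1K27M. All 6 samples with H3.1K27M lay below all 6 without it, and *Pax6* fell by 1.43 on the log2 scale with *ACVR1* WT (standard error 0.18, edgeR adjusted p = 0.00446) and by 0.81 with *ACVR1* R206H (standard error 0.06, edgeR adjusted p = 6e-07). *Nr2f1* had 71.9, 113.2 and 108.8 CPM with *ACVR1* WT, 88.3, 99.2 and 84.8 with *ACVR1* R206H, 44.4, 42.6 and 42.2 with *ACVR1* WT and H3.1K27M, and 52.1, 48.7 and 50.7 with *ACVR1* R206H and H3.1K27M. It fell by 1.20 (edgeR adjusted p = 0.0065) and by 0.82 (edgeR adjusted p = 3e-07) with no overlap between samples. *A830082K12Rik*, its antisense partner, was lower too (log2 -0.88, edgeR adjusted p = 0.0223, and -0.45, adjusted p = 0.00089). *Nr2f2*, the second nuclear receptor of this family, had 25.8, 39.8 and 35.1 CPM with *ACVR1* WT, 32.6, 36.8 and 33.8 with *ACVR1* R206H, 21.5, 19.2 and 19.4 with *ACVR1* WT and H3.1K27M, and 27.9, 25.6 and 29.7 with *ACVR1* R206H and H3.1K27M. Here the ranges of the 6 and 6 samples overlapped, although they did not within either background, and the differences were -0.75 (edgeR adjusted p = 0.0222) and -0.28 (edgeR adjusted p = 0.00406). The first was lost without *ACVR1* WT replicate 2 or 3 or without any 1 sample of *ACVR1* WT with H3.1K27M (edgeR adjusted p 0.0543 to 0.0963).

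In all, 9 of the 10 forebrain factors tested passed with *ACVR1* WT, 6 higher and 3 lower, and 10 of 10 with *ACVR1* R206H, 7 higher and 3 lower, beside 23.0% and 56.5% of all genes. These counts include *Nkx2-1* and *Barhl2*, which reached the filter only through the groups with H3.1K27M. The class therefore did not move one way.

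**Figure D2:**
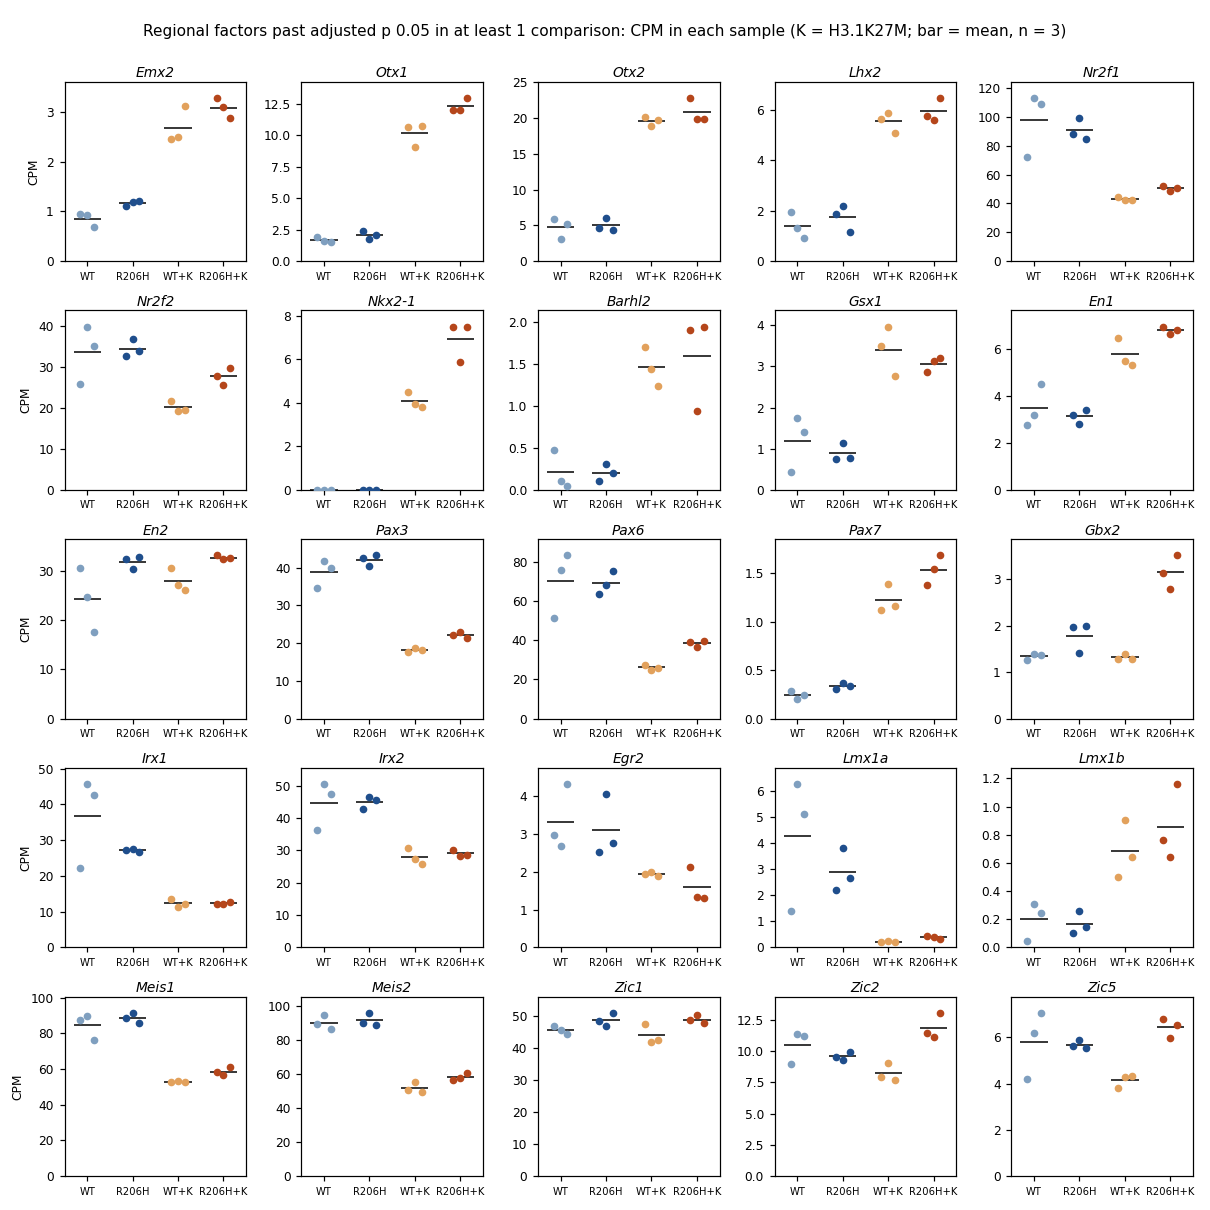
CPM of the 25 regional factors that passed the threshold in at least 1 test, 1 point for each sample, with a bar for the mean of each group of 3. *Nkx2-1* had 0 counts in the 6 samples without H3.1K27M and 3.80 to 7.51 CPM in the 6 with it, while *Pax6* had 51.3 to 83.3 CPM without and 24.8 to 39.8 CPM with H3.1K27M.

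At the midbrain-hindbrain boundary and roof plate, 1 of 4 factors tested passed with *ACVR1* WT and 4 of 5 with *ACVR1* R206H, beside 23.0% and 56.5% of all genes. *Lmx1a*, a LIM homeodomain factor of the roof plate and of midbrain floor plate progenitors, had 1.41, 6.24 and 5.10 CPM with *ACVR1* WT, 2.21, 3.79 and 2.67 with *ACVR1* R206H, 0.207, 0.239 and 0.200 with *ACVR1* WT and H3.1K27M, and 0.428, 0.386 and 0.336 with *ACVR1* R206H and H3.1K27M. The log2 difference of *Lmx1a* was -4.28 with *ACVR1* WT (standard error 0.66, edgeR adjusted p = 0.00785) and -2.88 with *ACVR1* R206H (standard error 0.29, edgeR adjusted p = 6e-06). The first call was lost without replicate 3 of *ACVR1* WT with H3.1K27M (edgeR adjusted p = 0.0502). The 6 choroid plexus markers, which include *Lmx1a* and *Otx2* themselves, summed to 21.4 to 61.0 CPM in the samples without H3.1K27M and to 21.1 to 26.6 CPM in those with it, and of 4 tested 1 was higher and 1 lower with *ACVR1* WT, and 1 higher and 2 lower with *ACVR1* R206H. Among them *Ttr* had group means of 32.6 and 23.7 CPM without H3.1K27M and 2.48 and 0.978 CPM with it, *Folr1* had 0.563 and 0.419 CPM without and 1.02 and 0.796 CPM with it, and *Kcnj13* and *Kl* had group means of at most 0.082 CPM. Their part in the *Lmx1a* difference was not tested.

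*En1*, which with *En2* patterns the midbrain and cerebellum, had 2.78, 3.20 and 4.51 CPM with *ACVR1* WT and 3.17, 2.81 and 3.40 with *ACVR1* R206H. With H3.1K27M it had 6.47, 5.49 and 5.32 CPM beside *ACVR1* WT and 6.94, 6.65 and 6.80 beside *ACVR1* R206H, above all samples without it. It passed with *ACVR1* R206H (log2 1.15, edgeR adjusted p = 1e-05) and not with *ACVR1* WT (log2 0.71, edgeR adjusted p = 0.0596), where it did pass without *ACVR1* WT replicate 1 (log2 0.56, edgeR adjusted p = 0.0358). *En2* had 17.6 to 30.7 CPM with *ACVR1* WT and 26.1 to 30.6 with *ACVR1* WT and H3.1K27M, and missed the threshold in both H3.1K27M comparisons (edgeR adjusted p = 0.538 and 0.348), but was called higher with *ACVR1* WT without *ACVR1* WT replicate 1 (log2 0.39, edgeR adjusted p = 0.0469). *Lmx1b* was under the filter with *ACVR1* WT, where it was tested and called without *ACVR1* WT replicate 1 (log2 1.26, edgeR adjusted p = 0.0416), and with *ACVR1* R206H it rose from 0.101, 0.260 and 0.146 CPM to 0.761, 0.643 and 1.16 CPM (log2 2.36, standard error 0.44, edgeR adjusted p = 0.00067). It had 2, 5 and 3 counts without H3.1K27M and 16, 15 and 31 with it, reached the filter only through the latter, and was not tested without replicate 3 of *ACVR1* R206H with H3.1K27M.

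In the alar plate and hindbrain class, 4 of 5 factors tested passed with *ACVR1* WT and 5 of 5 with *ACVR1* R206H, beside 23.0% and 56.5% of all genes, *Pax7* among them through its level with H3.1K27M alone. *Pax7*, a paired-box factor of the dorsal midbrain, had 0.282, 0.206 and 0.243 CPM with *ACVR1* WT, 0.302, 0.364 and 0.340 with *ACVR1* R206H, 1.12, 1.39 and 1.16 with *ACVR1* WT and H3.1K27M, and 1.38, 1.54 and 1.68 with *ACVR1* R206H and H3.1K27M. It rose by 2.28 (edgeR adjusted p = 0.00336) and 2.21 (edgeR adjusted p = 3.3e-05) on the log2 scale. Its paralogue *Pax3*, which marks the dorsal neural tube along its length, had 34.63, 41.89 and 40 CPM with *ACVR1* WT, 42.5, 40.5 and 43.3 with *ACVR1* R206H, 17.7, 18.7 and 18.1 with *ACVR1* WT and H3.1K27M, and 22.1, 22.9 and 21.4 with *ACVR1* R206H and H3.1K27M. *Pax3* fell by 1.11 (edgeR adjusted p = 0.00168) and 0.90 (edgeR adjusted p = 1.5e-07), opposite to *Pax7*, with no overlap for either gene.

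The Meis genes fell together with small errors. *Meis1* had 87.7, 89.7 and 76.0 CPM with *ACVR1* WT, 88.3, 91.3 and 85.8 with *ACVR1* R206H, 52.7, 53.2 and 52.9 with *ACVR1* WT and H3.1K27M, and 58.1, 56.6 and 60.9 with *ACVR1* R206H and H3.1K27M. *Meis2* had 89.2, 94.7 and 86.2 CPM with *ACVR1* WT, 89.7, 95.7 and 88.9 with *ACVR1* R206H, 50.4, 55.3 and 49.6 with *ACVR1* WT and H3.1K27M, and 56.7, 57.9 and 60.5 with *ACVR1* R206H and H3.1K27M. For both genes all 6 samples with H3.1K27M lay below all 6 without it. The log2 differences of *Meis1* were -0.69 (standard error 0.08, edgeR adjusted p = 0.00372) and -0.57 (standard error 0.05, edgeR adjusted p = 7.9e-07), and those of *Meis2* were -0.81 (edgeR adjusted p = 0.00194) and -0.62 (edgeR adjusted p = 5.6e-07). *Egr2*, which defines rhombomeres 3 and 5 and also marks myelinating Schwann cells, had 2.68 to 4.32 CPM with *ACVR1* WT and 1.88 to 2.01 with *ACVR1* WT and H3.1K27M (log2 -0.78, edgeR adjusted p = 0.0501), and passed without *ACVR1* WT replicate 1 (log2 -0.86, edgeR adjusted p = 0.0152). It fell with *ACVR1* R206H from 2.52, 4.06 and 2.77 CPM to 2.14, 1.33 and 1.31 CPM (log2 -0.95, edgeR adjusted p = 0.0062). *Pax3* and *Egr2* are also expressed in the crest lineage. The 6 neural crest and Schwann cell markers summed to 15.5 to 24.3 CPM in the samples without H3.1K27M and to 6.89 to 16.2 CPM in those with it, and of 3 tested 0 were higher and 2 lower with *ACVR1* WT, and 1 higher and 2 lower with *ACVR1* R206H. *Tfap2a* had group means of 14.7 and 18.9 CPM without and 3.27 and 5.18 CPM with H3.1K27M, and *Ngfr* went the other way, from 1.102 and 2.35 to 2.78 and 7.25 CPM. The defining marker *Foxd3* was at or below 0.0676 CPM in each group mean, and the part of these markers in the results was not tested.

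Of the Iroquois genes 2 of 4 tested passed in each background, beside 23.0% and 56.5% of all genes. *Irx1* and *Irx2*, of the cluster on chromosome 13, were lower in both backgrounds, and *Irx3* and *Irx5*, of that on chromosome 8, passed in neither. *Irx1* had 22.4, 45.6 and 42.7 CPM with *ACVR1* WT, 27.2, 27.7 and 26.7 with *ACVR1* R206H, 13.6, 11.4 and 12.1 with *ACVR1* WT and H3.1K27M, and 12.1, 12.3 and 12.7 with *ACVR1* R206H and H3.1K27M. *Irx2* had 36.2, 50.4 and 47.3 CPM with *ACVR1* WT, 42.6, 46.5 and 45.5 with *ACVR1* R206H, 30.8, 27.3 and 25.7 with *ACVR1* WT and H3.1K27M, and 30.2, 28.1 and 28.7 with *ACVR1* R206H and H3.1K27M. *Irx1* fell by 1.59 (edgeR adjusted p = 0.0108) and 1.11 (edgeR adjusted p = 5e-08), and *Irx2* by 0.69 (edgeR adjusted p = 0.019) and 0.60 (edgeR adjusted p = 2.8e-06). With *ACVR1* WT both calls were lost without any 1 sample of *ACVR1* WT with H3.1K27M, and the call of *Irx2* also without *ACVR1* WT replicate 2 (edgeR adjusted p 0.053 to 0.0866). *Irx3* had log2 differences of -0.31 (edgeR adjusted p = 0.173) and -0.03 (adjusted p = 0.786), and *Irx5* of -0.17 (edgeR adjusted p = 0.33) and 0.11 (adjusted p = 0.246). Without *ACVR1* WT replicate 1, *Irx3* passed as lower with *ACVR1* WT (log2 -0.43, edgeR adjusted p = 0.00839).

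The Zic genes, zinc-finger factors of the dorsal neural tube and cerebellum, had 0 of 4 calls under H3.1K27M with *ACVR1* WT and 1 of 4 with *ACVR1* R206H, beside 23.0% and 56.5% of all genes. Without *ACVR1* WT replicate 1, *Zic2* (log2 -0.47, edgeR adjusted p = 0.0116) and *Zic5* (log2 -0.69, adjusted p = 0.00473) were called lower with *ACVR1* WT, as they were with all 12 samples in 1 fit (edgeR adjusted p = 0.0223 and 0.0314). *Zic1*, also a marker of cerebellar granule cells, stood at 41.7 to 50.8 CPM across the 12 samples. Of the 6 granule neuron progenitor markers, which include *Zic1*, 3 were tested, of which 0 passed with *ACVR1* WT and 2 were higher with *ACVR1* R206H. The defining *Atoh1* had means of 0 CPM in both groups without H3.1K27M and of 0.0133 and 0.0317 CPM in those with it. *Zic2* passed with *ACVR1* R206H (log2 0.34, edgeR adjusted p = 0.00735) and had the opposite sign with *ACVR1* WT (log2 -0.36, edgeR adjusted p = 0.116).

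**Figure D3:**
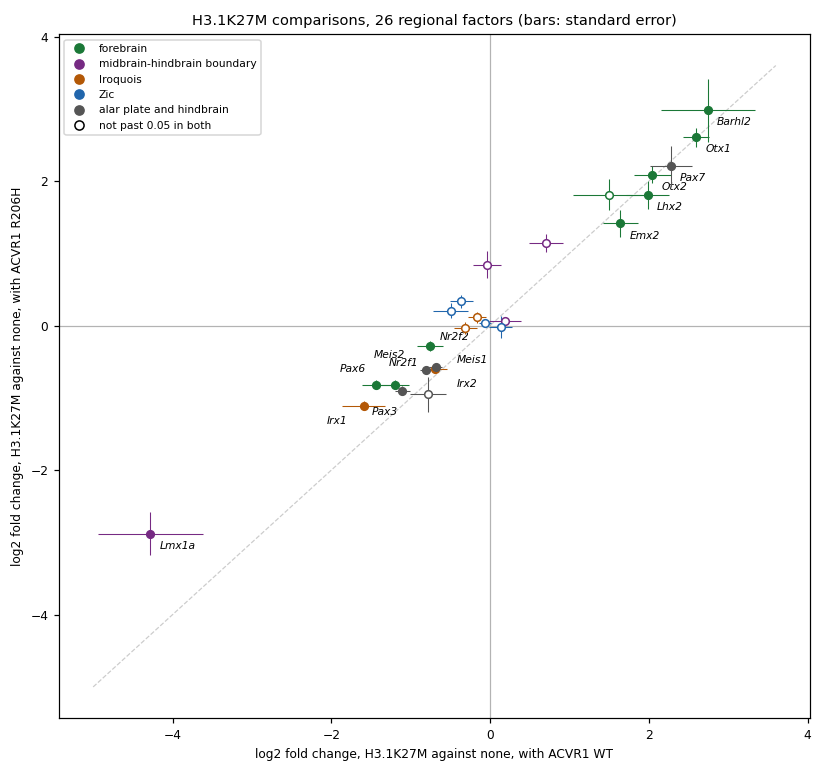
Log2 difference of H3.1K27M against none with *ACVR1* WT (horizontal axis) and with *ACVR1* R206H (vertical axis) for 26 regional factors, with standard errors, open symbols for factors that did not pass in both and a dashed line of equal values. *Nkx2-1* is left out because its groups without H3.1K27M were at 0, and *Otx1* lies at 2.59 and 2.61, *Lmx1a* at -4.28 and -2.88.

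Across both *ACVR1* backgrounds, 19 of the 28 factors tested (67.9%) had CPM ranges that did not overlap between the 6 samples with and the 6 without H3.1K27M, 10 higher and 9 lower, where 31.5% of all 15445 genes did. The 19 include *Nkx2-1*, *Barhl2*, *Pax7*, *Lmx1b* and *Lmx1a*, which reached the filter only through the groups where they were high, so that the share is a description.

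Promoter sequences are shown for the 2 largest rises and the 2 largest falls called in both backgrounds whose RefSeq start lay within 100 bases of the annotated one, because H3K27 trimethylation by Polycomb is known to favour promoters rich in CG. Each is the 250 bases before the RefSeq start on GRCm38.p6, read 5′ to 3′ on the strand of the gene, with CG in capitals.
Nkx2-1, chr12:56536909-56537158, reverse strand: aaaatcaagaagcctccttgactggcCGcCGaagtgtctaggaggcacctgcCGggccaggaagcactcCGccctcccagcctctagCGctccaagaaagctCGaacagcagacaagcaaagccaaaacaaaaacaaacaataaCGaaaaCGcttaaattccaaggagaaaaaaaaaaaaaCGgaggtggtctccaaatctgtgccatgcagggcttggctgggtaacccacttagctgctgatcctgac
Barhl2, chr5:106458167-106458416, reverse strand: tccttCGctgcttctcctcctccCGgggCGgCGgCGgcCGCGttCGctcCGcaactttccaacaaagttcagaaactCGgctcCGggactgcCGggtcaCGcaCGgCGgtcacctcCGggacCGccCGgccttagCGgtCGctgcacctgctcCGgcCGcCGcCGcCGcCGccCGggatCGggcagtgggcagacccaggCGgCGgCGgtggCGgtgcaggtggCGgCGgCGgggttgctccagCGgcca
Pax6, chr2:105668646-105668895, forward strand: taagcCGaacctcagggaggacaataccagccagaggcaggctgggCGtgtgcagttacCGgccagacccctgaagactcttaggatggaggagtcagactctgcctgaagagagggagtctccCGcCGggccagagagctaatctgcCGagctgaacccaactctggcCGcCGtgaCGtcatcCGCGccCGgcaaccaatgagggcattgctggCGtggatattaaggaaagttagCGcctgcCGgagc
Irx2, chr13:72628570-72628819, forward strand: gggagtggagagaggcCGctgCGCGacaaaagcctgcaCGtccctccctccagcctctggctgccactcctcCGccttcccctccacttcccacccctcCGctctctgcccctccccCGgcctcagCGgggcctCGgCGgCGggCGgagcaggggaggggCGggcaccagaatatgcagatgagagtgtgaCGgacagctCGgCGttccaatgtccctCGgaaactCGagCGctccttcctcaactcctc

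The 4 windows held 9, 36, 15 and 19 CG in that order. RefSeq windows were found for 35 of the 44 factors, with a median of 15 CG, against 6 in all 32851 windows. Windows were held for 6 of the 7 factors higher in both backgrounds, with a median of 18.5 CG, for 7 of the 9 lower in both, with a median of 13, and for 22 others, with a median of 15.5. Only 19 of the 35 RefSeq starts lay within 100 bases of the annotated one, and these medians use all 35. CAGAC, a 5-letter SMAD motif counted on either strand, was in 66.7% of the windows of the 6, 42.9% of those of the 7, 31.8% of those of the 22 and 42.2% of all windows.

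The second question was whether R206H shifted the code. Without H3.1K27M, 0 of 24 factors tested passed in edgeR's quasi-likelihood test, 0 had an unadjusted p under 0.05, and DESeq2 called 0 of them. The background was 0% of 15066 genes in edgeR, with 534 at an unadjusted p under 0.05. The median log2 difference of the factors was 0.01. Without *ACVR1* WT replicate 1, edgeR called 23.1% of all genes and 4 factors: *En2* was higher (log2 0.59, adjusted p = 0.0181), and *Nr2f1* (log2 -0.29, adjusted p = 0.0234), *Irx1* (log2 -0.71, adjusted p = 0.0019) and *Lmx1a* (log2 -0.97, adjusted p = 0.0216) were lower.

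With H3.1K27M, 13 of 28 factors tested passed and all 13 were higher in *ACVR1* R206H, which is 46.4% against 20.3% of 15672 genes in either direction (11.4% higher and 8.95% lower). The median log2 difference of the factors was 0.24. Markers of other cells moved in the same comparison. Of 6 neuron markers tested 3 were higher (*Stmn2*, *Tubb3* and *Syt1*) and 0 lower. *Dcx*, *Snap25* and *Rbfox3* had means of 26.7, 1.985 and 1.775 CPM in *ACVR1* WT with H3.1K27M and 22.4, 1.45 and 1.73 in *ACVR1* R206H with H3.1K27M. The neuron list summed to 38.8 to 42.7 CPM in *ACVR1* WT with H3.1K27M and 49.4 to 52.1 in *ACVR1* R206H with H3.1K27M. Of the astrocyte markers 4 of 5 were higher and 1 lower. Of the neural crest and Schwann cell markers 2 of 3 were higher, and 6 of 7 oligodendrocyte lineage markers were lower. Their part in the result was not tested. Of the classes, 5 of 11 forebrain, 3 of 5 alar plate and hindbrain, 2 of 4 boundary, 3 of 4 Zic and 0 of 4 Iroquois factors passed. *Gbx2*, the anterior hindbrain factor that opposes *Otx2* at the boundary, had the largest difference of the 13. It had 1.27, 1.39 and 1.36 CPM with *ACVR1* WT, 1.96, 1.40 and 1.99 with *ACVR1* R206H, 1.29, 1.39 and 1.28 with *ACVR1* WT and H3.1K27M, and 3.14, 2.79 and 3.51 with *ACVR1* R206H and H3.1K27M. The last group lay above the other 9 samples. With H3.1K27M present, R206H gave a log2 difference of 1.29 (standard error 0.18, edgeR adjusted p = 0.00025), and without it 0.41 (edgeR adjusted p = 0.94). The log2 difference of *Gbx2* for H3.1K27M against none was 0.84 with *ACVR1* R206H (standard error 0.19, edgeR adjusted p = 0.00256) and -0.04 with *ACVR1* WT (edgeR adjusted p = 0.912). *D130058E05Rik*, which overlaps *Gbx2*, was also higher in *ACVR1* R206H with H3.1K27M than in *ACVR1* WT with H3.1K27M (log2 0.66, edgeR adjusted p = 0.0354). They share 946 of the 2177 exon bases of *Gbx2*, from which reads were not counted for either.

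*Zic5* and *Zic2*, neighbours on chromosome 14, were higher in *ACVR1* R206H with H3.1K27M. *Zic2* had 7.97, 9.03 and 7.72 CPM with *ACVR1* WT and H3.1K27M and 11.5, 11.1 and 13.0 with *ACVR1* R206H and H3.1K27M, and *Zic5* had 3.82, 4.30 and 4.32 against 6.80, 5.96 and 6.54 CPM. Both were apart in all 3 against 3 samples, with log2 differences of 0.57 for *Zic2* (edgeR adjusted p = 0.00133) and 0.66 for *Zic5* (edgeR adjusted p = 0.00144). Without H3.1K27M the differences were -0.14 and -0.04 (edgeR adjusted p = 0.94 and 0.978). Of the granule neuron progenitor markers *Reln* was also higher in *ACVR1* R206H with H3.1K27M, at a mean of 73.8 against 37.1 CPM (edgeR adjusted p = 7.5e-06), and their summed level was 80.8 to 87.0 CPM in *ACVR1* WT with H3.1K27M and 121.2 to 131.4 in *ACVR1* R206H with H3.1K27M. *Reln* and *Zic1*, itself a regional factor, made up nearly all of that sum. In the same order of groups *Neurod1*, which did not pass, had means of 1.85 and 2.26 CPM, and the defining *Atoh1* 0.0133 and 0.0317 CPM. The part of these markers in the Zic differences was not tested.

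*Nkx2-1* rose by 0.80 (edgeR adjusted p = 0.00091), *Pax6* by 0.59 (adjusted p = 1.5e-05), *Nr2f2* by 0.50 (adjusted p = 0.00028), *Pax3* by 0.32 (adjusted p = 0.00422) and *Nr2f1* by 0.26 (adjusted p = 0.00195). *Pax6*, *Pax3*, *Nr2f2* and *Nr2f1* were thus lower with H3.1K27M and, in its presence, higher with R206H, as were *Meis1* and *Meis2*. *Nkx2-1* and *Otx1* were higher in both H3.1K27M comparisons and with R206H. The H3.1K27M comparison with *ACVR1* WT shares the samples of *ACVR1* WT with H3.1K27M with this one, which favours opposite signs. The remaining 5 of the 13, *Otx1*, *En2*, *Meis1*, *Meis2* and *Zic1*, had log2 differences of 0.18 to 0.31, and some of these calls rested on single samples. *Otx1*, *En2*, *Meis1* and *Zic1* were lost without replicate 2 of *ACVR1* WT with H3.1K27M, *Meis2* and *Zic1* without its replicate 3, *Otx1*, *Meis1*, *Meis2* and *Zic1* without replicate 3 of *ACVR1* R206H with H3.1K27M, and *Zic1* also without its replicate 1 or 2. DESeq2 called neither *Otx1* (DESeq2 adjusted p = 0.0693) nor *Zic1* (0.0714). With all 12 samples in 1 fit, only *Gbx2* and *Zic2* passed, where 2.85% of all genes did.

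**Figure D4:**
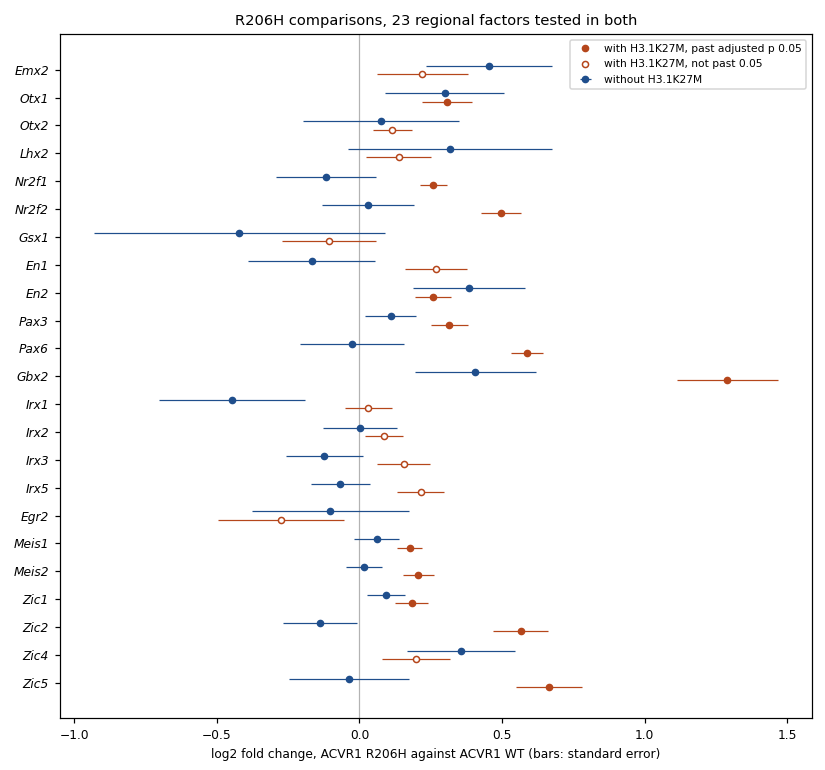
Log2 difference of *ACVR1* R206H against *ACVR1* WT (horizontal axis) for the 23 regional factors tested in both backgrounds, listed by row, with standard errors. Each row has a point for the comparison without H3.1K27M and a point for that with it, open where the latter did not pass. *Gbx2* has its points at 0.41 without and 1.29 with H3.1K27M, and *Zic5* at -0.04 and 0.66.

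The difference of the R206H effect between the backgrounds was tested on all 12 samples. In edgeR's quasi-likelihood test 0 of 28 factors passed, beside 0.0712% of 15445 genes (0.0583% with a positive and 0.0129% with a negative difference), and 6 factors had an unadjusted p under 0.05: *Zic2* (log2 0.70, adjusted p = 0.284), *Gbx2* (0.88, adjusted p = 0.394), *Pax6* (0.62, adjusted p = 0.517), *Zic5* (0.70, adjusted p = 0.521), *Nr2f2* (0.47, adjusted p = 0.615) and *Meis2* (0.19, adjusted p = 0.642). DESeq2 called 1, *Zic2* (log2 0.71, DESeq2 adjusted p = 0.0291). Without *ACVR1* WT replicate 1, edgeR called 26.6% of all genes and 10 factors, all with a positive difference from 0.29 for *Pax3* to 1.83 for *Lmx1a*. The calls on a difference between backgrounds depended on that library and, for *Zic2*, also on the test.

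Other patterning genes were read from fixed lists. Of the other forebrain factors on these lists 5 were tested under H3.1K27M, and 2 were higher with *ACVR1* WT and 5 with *ACVR1* R206H. Among these were *Six3*, a factor of the anterior forebrain and eye, which reached the filter only through its level with H3.1K27M (15 and 7 counts over the 3 samples of *ACVR1* WT and of *ACVR1* R206H, against 462 and 758 with H3.1K27M), and *Nr2e1*, a nuclear receptor of forebrain stem cells (log2 2.36 and 2.12). Of 11 dorsoventral factors tested, 1 was higher and 2 lower with *ACVR1* WT and 5 higher and 3 lower with *ACVR1* R206H. Of 6 isthmic and patterning signals tested, 3 were higher with *ACVR1* WT and 4 higher and 2 lower with *ACVR1* R206H. The background percentages are those of the H3.1K27M comparisons above.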

How the data were processed

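RNAseq of 12 samples (3 in each of 4 groups) was used. The authors aligned reads to mm10 with STAR 2.6.0b-1 and counted them per gene with HTSeq-count, without strand, and they deposited raw counts, which are not normalized. Rows of read summaries that name no gene were left out. Total counts were 19315020 to 26456257 per sample. The labels do not say whether replicates are separate cultures, and the study's methods, which count cell lines from separate litters for other assays of these cells, do not say it of RNAseq by name.

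Counts were tested with edgeR 4.0.16 (R 4.3.3, TMM, quasi-likelihood F test) on genes whose normalized counts averaged 10 or more, each comparison on its own samples and the interaction on all 12, with Benjamini-Hochberg adjustment over all genes and a threshold of 0.05. The standard error is the absolute log2 difference divided by the square root of F. The test was run on simulated data in which all groups had the same spread. That simulation did not cover the wider spread of *ACVR1* WT seen here. Alternatives were DESeq2 1.42.0, its size factors in edgeR, no filter, at least 10 counts in every sample, a replicate block, all 12 samples in 1 fit and leaving out each sample. Members past the threshold in at least 1 test were given with their test, most of them sample by sample and the rest by ranges, and of the other lists at most 6 called genes were to be named. Factors with the smallest differences for R206H with H3.1K27M were given there only by a range of log2 differences. The members and lists were chosen with earlier results of these data known. Promoters and antisense partners came from RefSeq and GENCODE annotation. A fold against a group at 0 used a floor of 3 counts over the group, which covers counting error only. A few genes of the other lists, and the counts that rest on them, are not reported here.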

Additional observations from a re-analysis of the deposited data

Results flagged for a closer look

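*Fezf2*, a forebrain zinc-finger factor too low to be tested under the filter, had differences of opposite sign with R206H in the 2 backgrounds. It had 1 count in each *ACVR1* WT sample and 0 in each *ACVR1* R206H sample, and 1, 0 and 2 counts with *ACVR1* WT and H3.1K27M against 5, 6 and 6 with *ACVR1* R206H and H3.1K27M. The mean differences of the 2 backgrounds were 0.248 CPM apart. Under the filter this difference was not tested. Without the filter neither R206H comparison passed (edgeR adjusted p = 0.81 without H3.1K27M, edgeR adjusted p = 0.0624 with it). The interaction did not pass either (edgeR adjusted p = 0.641), whereas H3.1K27M against none with *ACVR1* R206H did (edgeR adjusted p = 0.00088).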

How the results depend on the processing

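No factor called in a comparison changed direction there under the alternatives run. The number of factors called for R206H without H3.1K27M was 0 to 4 when each sample was left out in turn, the 4 without *ACVR1* WT replicate 1. The other ranges were 9 to 13 for R206H with H3.1K27M, 11 to 24 for H3.1K27M with *ACVR1* WT, 21 to 22 with *ACVR1* R206H and 0 to 10 for the interaction, the 24 and the 10 again without *ACVR1* WT replicate 1. With all 12 samples in 1 fit, 2 factors were called for R206H with H3.1K27M, and with DESeq2 1 was called for the interaction. For H3.1K27M with *ACVR1* WT the fit of all 12 samples called 22 factors, adding *Gsx1*, *En1*, *Egr2*, *Lmx1b*, *Zic2* and *Zic5* to the 16. DESeq2 called 19 there, adding *Gsx1*, *En1* and *Egr2*, beside 4522 of 15385 genes. For H3.1K27M with *ACVR1* R206H the fit of all 12 samples no longer called *Nr2f2* (edgeR adjusted p = 0.0992). For R206H with H3.1K27M DESeq2 called 11, beside 2520 of 15672 genes. The causes were not tested. Over all genes, the calls without *ACVR1* WT replicate 1 numbered 3485 against 0 for R206H without H3.1K27M, 8115 against 3533 for H3.1K27M with *ACVR1* WT and 4112 against 11 for the interaction. The lowest number for H3.1K27M with *ACVR1* WT when a sample was left out was 1037. With all 12 samples in 1 fit there were 440 against 3185 for R206H with H3.1K27M, 6335 for H3.1K27M with *ACVR1* WT and 11 for R206H without H3.1K27M. DESeq2 called 26 genes for R206H without H3.1K27M and 96 for the interaction, and without the filter edgeR called 18 for the interaction.

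Correlations of deviations between same-numbered samples ran from -0.157 to 0.476 over the 4 comparisons. With 3 samples in each group they cannot decide whether replicate numbers pair the samples. With the replicate number as a block, 0, 13, 14, 22 and 0 factors were called, in the order R206H without and with H3.1K27M, H3.1K27M with *ACVR1* WT and with *ACVR1* R206H, and the interaction. *Nr2f2* (edgeR adjusted p = 0.0644) and *Irx2* (0.0625) were no longer called with *ACVR1* WT. Over all genes the block gave 0, 3335, 2023, 8606 and 2 calls in the same order. The 15 factors that were not tested had at most 10 counts in a sample, where low expression and limited depth cannot be told apart.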
